A study of Mus musculus with 96 samples.

Results

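Ribosome footprints on the 5' untranslated region (5' UTR) of mRNAs were described across genes in wild-type mouse neural tube. For each gene, 1 transcript was taken, that with the most counts in its coding sequence, and the density of footprints per nucleotide (nt) of the 5' UTR was set against the density per nt of the coding sequence. The same ratio in RNA libraries of the same pools served as the reference. Of 22422 genes with a coding sequence in the counts, 20465 had a 5' UTR on the transcript used, and 11228 of these had a 5' UTR of at least 30 nt and enough coding counts to expect at least 10 counts on the 5' UTR in each assay. All 11228 were tested, whatever their 5' UTR held.

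The libraries were ribosome footprints and RNA of neural tubes from C3HeB wild-type embryos at E11.5, with 3 pools in each assay. A pool was the neural tubes of 1 litter, dissociated with papain, and its cells were divided between the footprint and the RNA tube. Footprint lysates were made in cycloheximide, cleared of nuclei and mitochondria and digested with RNase I, and fragments of 28 to 31 nt were cut from a gel, whereas the RNA libraries held fragments of 30 to 50 nt of poly(A) RNA. Neural tubes heterozygous for an Eif3c allele were also profiled in the series and were not used here.

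Translation of most mRNAs starts when a ribosome that scans from the cap meets the start codon of the coding sequence, so that the 5' UTR is passed by scanning subunits and not by elongating ribosomes. A footprint on a 5' UTR can come from a ribosome on an upstream open reading frame, on a start codon other than the annotated AUG, or at the annotated start itself, and reads can also stem from another transcript that is coding there or from another locus with the same sequence. Upstream frames are best known in mRNAs of the integrated stress response, where they hold back the coding sequence in unstressed cells, and in several mRNAs of polyamine metabolism.

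The upstream start codons below are examples from stress response and Hedgehog genes described further on, not all of those that these 5' UTRs hold, and each is shown with 9 bases on either side where the transcript reaches that far. Capitals mark the upstream start codon and, where it lies in the window, the stop codon of its frame. All are read 5' to 3' along the mRNA from the GENCODE vM21 transcripts, with coordinates on GRCm38.
Atf4, contained frame of 3 codons, chr15:80255573-80255593, plus strand: gcggccaccATGgcgtatTAG
Atf4, overlapping frame of 59 codons, chr15:80255672-80256213, plus strand, across an intron: gcctaagccATGgcgctcttc
Atf5, contained frame of 3 codons, chr7:44816526-44816546, minus strand: gcccgcgcaATGgctctgTAG
Atf5, overlapping frame of 58 codons, chr7:44815276-44816415, minus strand, across an intron: ttcgccgccATGgagtcctcc
Ddit3, contained frame of 34 codons, chr10:127290820-127290840, plus strand: gattatatcATGttgaagatg
Ppp1r15a, contained frame of 26 codons, chr7:45526078-45526098, minus strand: gagggcgacATGaacccgctg
Ifrd1, contained frame of 52 codons, chr12:40223147-40223167, minus strand: gagagaaacATGtatcgtttc
Gli1, overlapping frame of 38 codons, chr10:127341249-127341269, minus strand: gaggttgggATGaagaagcag
Smo, contained frame of 35 codons, chr6:29735801-29735821, plus strand: ctgctcaacATGgggcccggg
A contained frame ends before the annotated start codon, and an overlapping frame ends beyond it in another reading frame. In Atf4, a transcription factor of the stress response, the 3-codon frame ended 184 nt before the annotated start, and the overlapping frame opened 97 nt before it. Atf5, a related factor, had the same order, with a stop 240 nt before the annotated start and an overlapping frame that opened 121 nt before it. The counts are per 5' UTR, so that a footprint cannot be placed on 1 of these frames here.

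The 5' UTR took a larger share of transcript counts in footprints than in RNA. The 5' UTR held 13.9%, 13.9% and 13.8% of the counts of the transcripts used in the 3 footprint libraries, against 5.17%, 5.24% and 5.14% in the 3 RNA libraries. The mean was 13.9% ± 0.0560 in footprints and 5.18% ± 0.0474 in RNA (SD, n = 3 each), and the assays did not overlap. An exact two-sided permutation test of 3 against 3 libraries gave p = 0.1, the smallest value this design allows. The 3' UTR, by contrast, held 1.60% of footprint counts and 37.4% of RNA counts, which leaves less of the RNA counts to the other parts. The coding sequence held 90.4% of footprint counts and 60.4% of RNA counts. Pooled over genes, the ratio of 5' UTR to coding density was 1.17 in footprints and 0.629 in RNA. Coding depth was 17279511 to 59205775 counts in footprint libraries and 7199456 to 13135684 counts in RNA libraries. The 12 neural tube markers all had at least 10 counts in every RNA library, as did the 7 erythroid markers. Neural tube markers summed to 4577 to 4877 CPM (coding counts scaled to the library total) in footprints and 3543 to 3596 CPM in RNA. Erythroid markers summed to 8604 to 9787 CPM in footprints and 2719 to 3348 CPM in RNA. In such pooled tissue, fewer cells of a type and less RNA per cell cannot be told apart, and the part of other cell types in the ratios was not tested.

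A read was counted in every part of the transcript it overlapped, since the parts added up to no less than the whole transcript for every transcript. Footprints that span the annotated start codon therefore stand in the 5' UTR count, whereas the coding count leaves out the first 15 codons. Such footprints made up between 31.6% and 41.0% of 5' UTR footprints over the 3 libraries, where the range covers the bounds that the counts allow. In RNA the bounds were wider, from 2.06% to 49.2%. In the 9487 transcripts with no 3' UTR the counts give the share without bounds. There it was 28.6%, 30.6% and 28.8% in footprints and 28.7%, 28.3% and 26.5% in RNA, so it was similar in both assays. For 5' UTRs of at least 100 nt, results are given also for footprints that lie wholly inside the 5' UTR. They are given at the lower bound of their number unless stated, with the number of positions adjusted for a footprint of 30 nt. RNA counts were not changed in this way and kept the fragments that span the start codon. The assays are thus not treated alike in these results.

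Across genes, a typical 5' UTR carried slightly more footprints per nt than its coding sequence, whereas it carried fewer RNA fragments per nt. The median ratio of 5' UTR to coding density was 1.10, 1.14 and 1.12 in the 3 footprint libraries, against 0.633, 0.632 and 0.630 in the 3 RNA libraries. The ratio was above 1 in all 3 footprint libraries in 5568 genes (49.6%), and in all 3 RNA libraries in 553 genes (4.93%). Footprint ratios were also spread more widely over genes: in pool 1 the middle 90% of genes lay between log2 ratios of -2.75 and 1.90 in footprints, and between -3.01 and 0.39 in RNA.

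**Figure D1:**
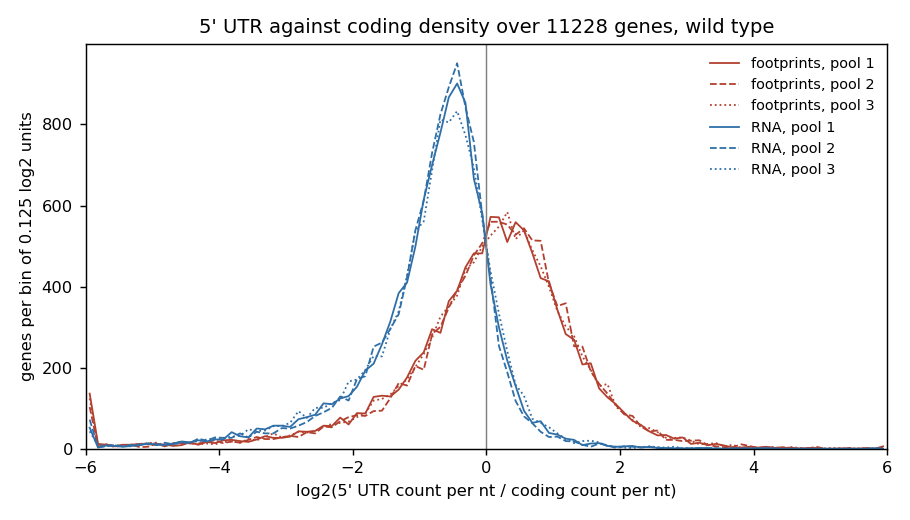
Distribution of the log2 ratio of 5' UTR to coding density over 11228 genes, with the ratio on the x axis and genes per bin on the y axis. Red lines are the 3 footprint libraries and blue lines the 3 RNA libraries, values beyond 6 are gathered in the end bins, and the footprint medians (0.14, 0.19 and 0.17) lie above 0 while the RNA medians (-0.66, -0.66 and -0.67) lie below it.

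The ratio in footprints relative to that in RNA was tested per gene with edgeR's quasi-likelihood test over the 6 libraries. The ratio was higher in footprints for 7786 genes, 69.3% of those tested, and lower for 553 genes, 4.93%, at an adjusted p under 0.05. The median log2 difference, footprints minus RNA, was 0.89, a 1.85-fold higher ratio, and the middle 90% of genes ran from -0.58 to 2.36. A higher ratio by more than 4-fold was found for 1041 genes, and a lower one by more than 4-fold for 126. The 3 footprint libraries all lay above the 3 RNA libraries in 7861 genes (70%) and all below them in 647 (5.76%). Because nearly the whole distribution was shifted, the same test against the median gene called 2656 genes higher (23.7%) and 2623 lower (23.4%).

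The shift was smaller for footprints wholly inside the 5' UTR, set against RNA counts that kept the fragments spanning the start codon. In the 8924 genes with at least 100 nt, the median log2 difference was 0.87 with all footprints and between 0.45 and 0.65 with those wholly inside, a 1.37-fold to 1.57-fold higher ratio. At the lower bound, 4193 genes (47%) were higher and 1803 (20.2%) were lower, and at the upper bound 5116 (57.3%) were higher and 1243 (13.9%) lower. Of the 6258 genes of this group that were higher with all footprints, 4186 were also higher with those wholly inside, and 728 were lower. Eif3c, the initiation factor subunit whose allele defines the mutants of the series, was 1 of those 728. Of the 30-nt stretches of its coding sequence, 13.8% are found in a gene elsewhere in the genome. Its ratio was 1.85, 1.59 and 1.65 in footprints and 0.878, 0.945 and 0.955 in RNA, a log2 difference of 0.88 ± 0.10 (SE). Of its 5' UTR footprints, 68.7% to 76.4% spanned the start codon, and its log2 difference with footprints wholly inside was -0.74 to -0.31.

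**Figure D2:**
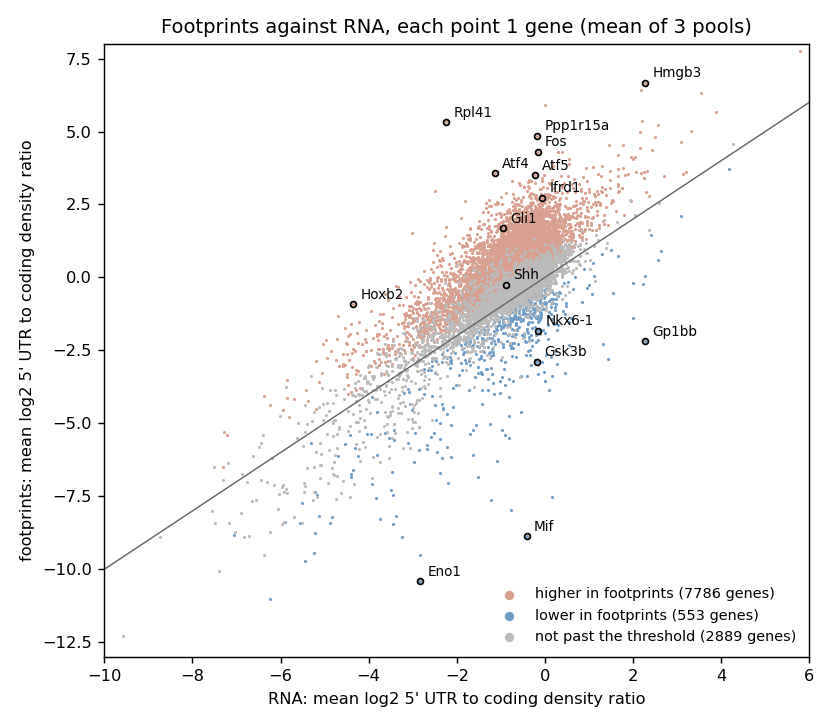
Mean log2 ratio of 5' UTR to coding density in footprints (y axis) against that in RNA (x axis) for 11228 genes, each the mean of 3 pools with 0.5 added to each count; the line marks equal ratios. Most genes lie above the line, Atf4, Ppp1r15a and Fos stand more than 4 log2 units above it, and Gp1bb, Gsk3b and Nkx6-1 lie below it.

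The ratio in footprints differed more between long and short 5' UTRs than the ratio in RNA did. The median log2 ratio in footprints was 0.72 in 5' UTRs of 30 to 49 nt, 0.27 at 100 to 149 nt, -0.04 at 300 to 399 nt and -0.31 at 600 nt or more. In RNA the medians over the same classes were -0.38, -0.64, -0.73 and -0.69. The shortest class was nearly all start codon: a median of at least 92.7% of its 5' UTR footprints spanned it, against at least 1.60% in the longest. With footprints wholly inside, at the lower bound, the median log2 difference was 0.06 at 100 to 149 nt and between 0.44 and 0.56 in each longer class. At the upper bound it was 0.49 at 100 to 149 nt and between 0.50 and 0.75 in each longer class, so the low value at 100 to 149 nt depended on the bound. Over all genes tested, Spearman's correlation between length and the log2 difference was -0.11, a description across genes that share their libraries.

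**Figure D3:**
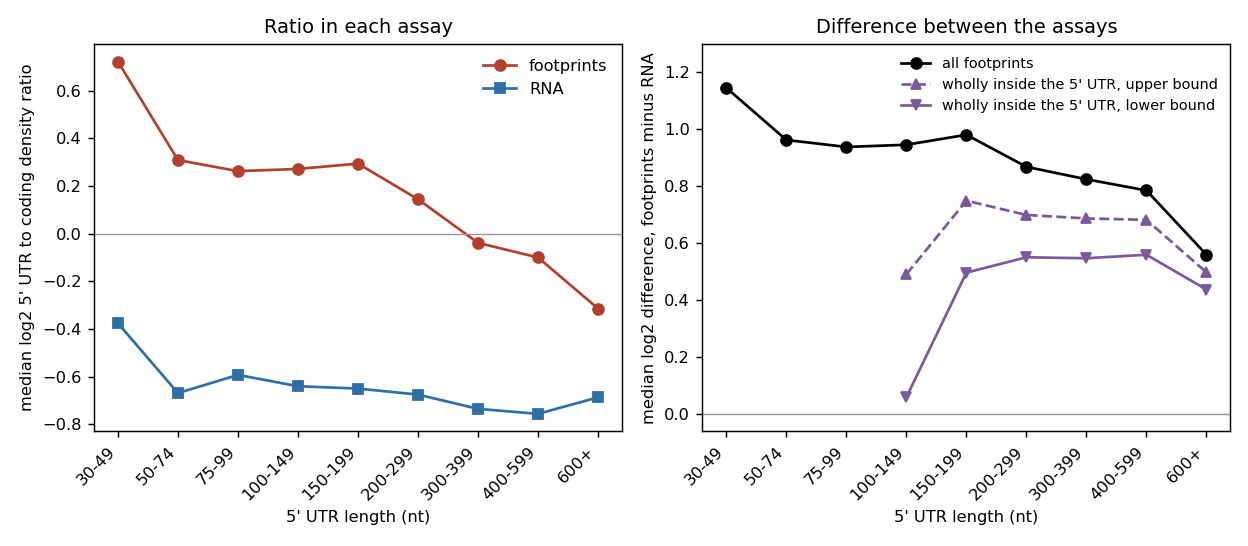
Median log2 ratio of 5' UTR to coding density in footprints and RNA (left) and median log2 difference, footprints minus RNA (right), by 5' UTR length in nt. The footprint ratio declines from the shortest class (0.72) to the longest (-0.31). The difference for footprints wholly inside the 5' UTR is shown at both bounds for 100 nt or more, and at the lower bound it is nearly level from 150 nt up.

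5' UTRs with an upstream AUG had a higher median than those without, a description with no test. The comparison was limited to 7389 genes with at least 100 nt, with footprints wholly inside, and with at most 5% of the 30-nt stretches of 5' UTR and of coding sequence found in a gene elsewhere in the genome; of these, 46.8% were higher and 19.5% lower. In 5' UTRs of 150 to under 400 nt, the median log2 difference was 0.69 in the 2738 genes with an upstream AUG and 0.31 in the 1475 without. Genes with a higher ratio made up 55.7% of those with an upstream AUG and 40.8% of those without.

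The kind of frame went with the size of the difference. The median log2 difference was 0.63 in the 1904 genes with contained frames only, 0.80 in the 310 with overlapping frames only, and 1.01 in the 468 with both, against 0.31 in the 1475 with none. The quartiles were 0.22 and 1.80 in genes with both kinds, and -0.25 and 0.81 in genes with none, so the classes overlapped widely. The 18 genes whose only upstream AUG extended the coding sequence in frame had a median of -0.68 at the lower bound and -0.16 at the upper bound, against 0.43 with all footprints. The median did not go on growing with number: it was 0.58 with 1 upstream AUG, 0.68 with 2, 0.76 with 3 and 0.56 with 4 or more. These classes also differed in length, with a median 5' UTR of 228 nt at 1 upstream AUG and 510 nt at 4 or more. Within a narrow length class the contrast was still present: at 150 to 199 nt the median was 0.81 in 617 genes with an upstream AUG and 0.30 in 604 without, and at 400 to 599 nt it was 0.57 in 910 genes and 0.44 in 130. GC content showed no such order, as the medians of 5 equal groups ran 0.43, 0.53, 0.51, 0.44 and 0.35 in rising order of GC. The fifth of genes with the densest coding RNA had a median of 0.16, lower than the 0.43 to 0.61 of the other groups of RNA density.

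**Figure D4:**
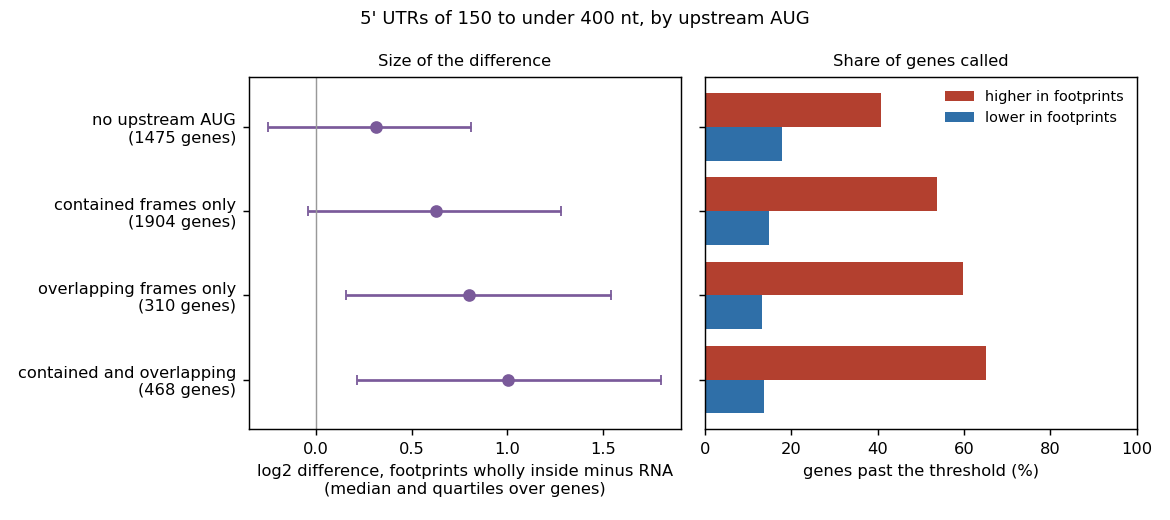
Genes with 5' UTRs of 150 to under 400 nt, by the kind of upstream AUG: log2 difference of the 5' UTR to coding ratio, footprints wholly inside minus RNA, as median and quartiles over genes (left), and share of genes higher (red) and lower (blue) at an adjusted p under 0.05 (right). The median is 0.31 with no upstream AUG and 1.01 with contained and overlapping frames together.

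Each gene list below is to be read against all genes tested, of which 69.3% were higher and 4.93% lower, with a median log2 difference of 0.89. For footprints wholly inside 5' UTRs of at least 100 nt, the same figures over all genes were 47% higher and 20.2% lower, with a median of 0.45.

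The mRNAs known for regulation by upstream frames stood high in the distribution. Of 21 such genes, chosen for that knowledge, 18 could be tested, of which 16 were higher, none was lower and 2 did not pass, with a median log2 difference of 1.50 against 0.89 over all genes and 69.3% called higher. With only footprints wholly inside counted, 16 of 18 were higher and 1 lower, with a median of 1.53. Ppp1r15a, which directs a phosphatase to the initiation factor eIF2 late in stress, had ratios of 28.4, 25.1 and 33.8 in footprints, against 0.820, 0.876 and 0.966 in RNA. Its 5' UTR thus carried at least 25.1 times as many footprints per nt as its coding sequence in every pool, with a log2 difference of 5.07 ± 0.20 (SE, edgeR adjusted p = 3.3e-19). Atf4 had ratios of 11.4, 11.2 and 13.1 in footprints and 0.439, 0.488 and 0.443 in RNA, a log2 difference of 4.70 ± 0.10 (adjusted p = 2.2e-25). For this gene, 5234, 1437 and 3101 footprints lay on the 5' UTR in the 3 libraries, against 766, 214 and 394 on the coding sequence, while RNA counts were 606, 943 and 525 on the 5' UTR and 2301, 3222 and 1977 on the coding sequence. The order of the parts was thus turned round between the assays in every pool.

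Atf5 had ratios of 10.4, 13.8 and 10.1 in footprints and 0.774, 0.844 and 0.962 in RNA. Ddit3, which encodes the stress factor CHOP, had 6.71, 8.85 and 10.4 in footprints and 0.965, 0.820 and 1.15 in RNA, a log2 difference of 3.15 ± 0.24. A frame of 102 nt in its 5' UTR is annotated as coding in another transcript, which is the length of the contained frame of 34 codons shown above. Ifrd1, whose mRNA is stabilised when its upstream frame is not translated, had 6.29, 7.07 and 6.62 in footprints and 0.916, 1.00 and 0.958 in RNA. In these genes the footprint libraries lay well apart from the RNA libraries, and few footprints spanned the start codon, from 2.45% to 16.3% over the 5 genes from Ppp1r15a to Ifrd1.

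Other tested members of the list are given by their log2 difference. Gadd45g, a stress-induced growth regulator with no upstream AUG, had a log2 difference of 2.87. Ppp1r15b, the constitutive partner of the same phosphatase, had 1.52, the initiation factor Eif5 1.48 and Mief1, a mitochondrial fission factor, 1.45. For Eif5, 25.3% of coding stretches are found in a gene elsewhere. Azin1, the antizyme inhibitor of the polyamine pathway, had 1.53 and Odc1, which makes the first polyamine, 0.68. Odc1 was below the median gene with all footprints, but with those wholly inside it had 0.77, against a median of 0.45 over all genes. Of its coding stretches, 82% are found in another gene. Slc7a1 (0.17) and Cebpb (-0.50) did not pass the threshold. Amd1 had no coding footprint in any library on the transcript used, Cebpa had too few counts, and the transcript used for Slc35a4 had no 5' UTR, so these 3 members were not tested.

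**Figure D5:**
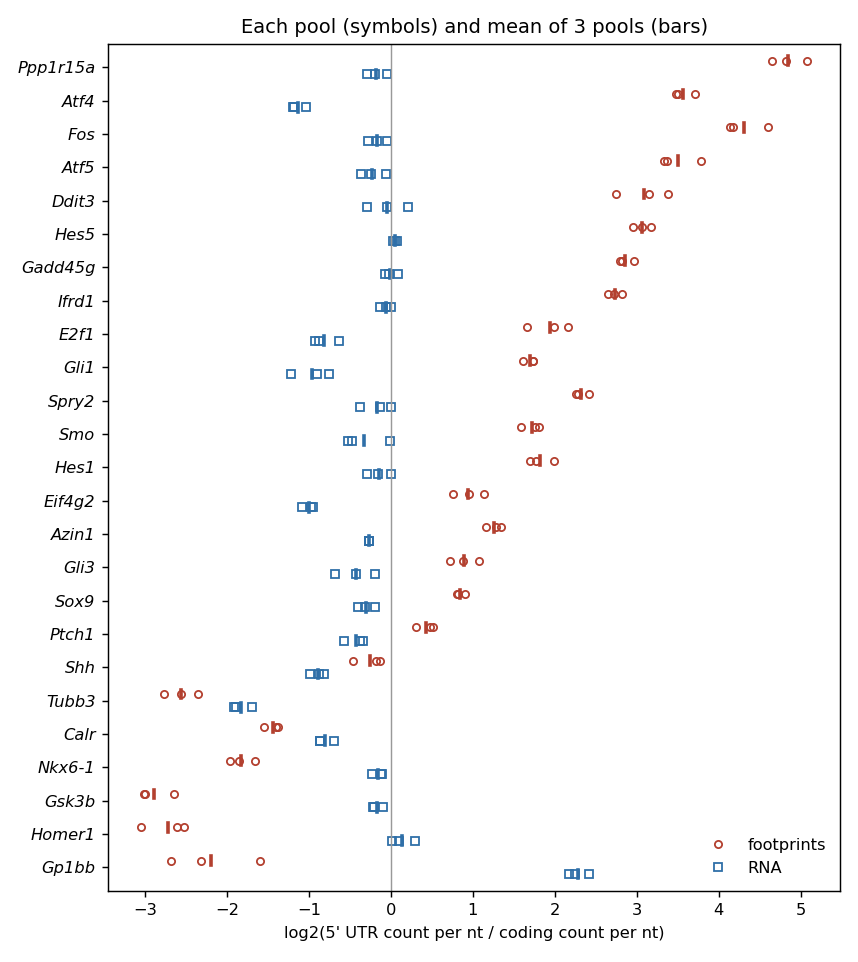
Log2 ratio of 5' UTR to coding density in each of 3 pools for 25 genes named in the text, footprints as red circles above RNA as blue squares, with the mean of 3 pools as a bar. From Ppp1r15a down to Shh the footprint pools lie right of the RNA pools, and from Tubb3 down to Gp1bb they lie left of them.

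Among the 12 largest rises over all genes, Fos, Ercc8, Tbc1d16 and Selenow stood beside Ppp1r15a and Atf4 as genes with little sequence found elsewhere. Fos, an immediate early transcription factor, had ratios of 18.1, 17.6 and 24.4 in footprints and 0.891, 0.970 and 0.824 in RNA, a log2 difference of 4.55 ± 0.16, although its 5' UTR of 150 nt holds no AUG. Ercc8, a DNA repair factor, had 18.9, 19.7 and 20.7 in footprints and 1.71, 1.31 and 1.00 in RNA, with a single overlapping upstream frame in 56 nt. Tbc1d16, a regulator of Rab GTPases, had 9.30, 8.77 and 8.62 in footprints and 0.629, 0.609 and 0.808 in RNA. Its only upstream AUG opens 20 nt before the annotated start, and 48.4% to 50.2% of its 5' UTR footprints spanned that start. Selenow, a selenoprotein, had a log2 difference of 3.73, but at least 90.2% of its 5' UTR footprints spanned the start codon, and with footprints wholly inside the difference was 0.30 and did not pass.

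Other large rises were less certain. All coding stretches of Ppia, Hmgb3 and Isca1 (100%) are found in a gene elsewhere, the coding sequence of Rpl41 is 18 nt after trimming, and Pogk had at least 88.4% of its 5' UTR footprints on the start codon. Rpl41, a ribosomal protein, had a log2 difference of 7.85, which was -0.29 when the whole coding sequence was used. With genes that share sequence set aside, a choice made after these values were seen, the 12 largest rises also included Fastk, Polr2m, Ccnt2, Atf5, Trpm7 and Rnpepl1, with log2 differences of 3.65 to 3.70. In Trpm7, a channel with a kinase domain, the ratio was 9.82, 9.41 and 10.3 in footprints and 0.888, 0.718 and 0.797 in RNA. In Polr2m, 109 nt of the 5' UTR are annotated as coding in another transcript. In Ccnt2, a cyclin of transcription elongation, at least 87.9% of 5' UTR footprints spanned the start codon.

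Immediate early genes, which cells switch on within minutes of a stimulus, were the list with the largest median when all footprints were counted. Of 20 tested, 18 were higher and none was lower, with a median log2 difference of 1.84, against 0.89 and 69.3% higher over all genes. Counting footprints wholly inside alone, 14 of 18 were higher and none lower, with a median of 1.45. Ier2 had ratios of 4.02, 4.35 and 4.70 in footprints and 1.02, 0.933 and 1.36 in RNA. Btg2, an antiproliferative gene, had a log2 difference of 1.82 and Jund, a partner of Fos, 1.99. The cells were dissociated before lysis, and what part that had in the levels of these genes was not tested.

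Annotated starts other than AUG were rare. Of 10750 tested genes with a sequence, 17 had such a start, and 14 of these were higher, with a median log2 difference of 1.10, against 69.3% of all genes. When footprints wholly inside alone were counted, 6 of 14 were higher and 4 lower, with a median of 0.80. Eif4g2, a relative of the scaffold factor eIF4G, is annotated with a GUG start at the following site, where capitals mark that codon.
Eif4g2, annotated start, chr7:111081536-111081556, minus strand: gccgccaaaGTGgagagtgcg
Its ratio was 1.69, 2.19 and 1.93 in footprints and 0.518, 0.472 and 0.511 in RNA, a log2 difference of 1.94 ± 0.08, and 7.38% to 11.3% of its 5' UTR footprints spanned that start. Of 8 proteins known for an N-terminal extension from a codon other than AUG, 6 could be tested and all 6 were higher, with a median of 1.01. In Vegfa, Bag1 and Gtf3a the annotated start is itself CUG, so an extension from that codon counts as coding and not as 5' UTR. Restricted to footprints wholly inside, 4 of 5 were higher and none lower, with a median of 0.39. Vegfa, a growth factor of blood vessels, had 1.42 and held no upstream AUG in 479 nt. Bag1, a chaperone cofactor, had 1.28, with at least 94.97% of its 5' UTR footprints on the start codon, and Ddx17, an RNA helicase, had 0.39.

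In the Hedgehog pathway, which patterns the ventral neural tube, 17 of 25 tested genes were higher and 2 lower, with a median log2 difference of 0.86, near that of all genes (0.89). With footprints wholly inside, 14 of 22 were higher and 4 lower, with a median of 0.84. The transcription factor Gli1 had ratios of 3.32, 3.07 and 3.32 in footprints and 0.536, 0.592 and 0.430 in RNA, a log2 difference of 2.64 ± 0.22. The transducer Smo had 3.40, 3.01 and 3.51 in footprints and 0.697, 0.723 and 0.995 in RNA, a log2 difference of 2.08 ± 0.13. For Smo, 6.28% of coding stretches are found in a gene elsewhere. In Gli1 and Smo few footprints spanned the start, from 1.72% to 4.81%. Gli3 had a log2 difference of 1.27, the receptor Ptch1 0.86, Gli2 0.83 and the ligand Shh 0.65. With all footprints the last 3 passed the test but lay below the median gene, and none of them passed the test against the median gene. With footprints wholly inside, Ptch1 had 0.99, Gli2 0.86 and Shh 0.61, above the median of 0.45 over all genes. The kinase Gsk3b, which acts in the Hedgehog and the Wnt pathway, was lower, with ratios of 0.125, 0.160 and 0.124 in footprints and 0.863, 0.869 and 0.937 in RNA.

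In the Notch pathway 19 of 25 genes were higher and 1 lower, near the 69.3% of all genes, with a median of 0.97. Counting footprints wholly inside alone, 8 of 19 were higher and 4 lower, with a median of 0.47. Hes5, a target that keeps progenitors undifferentiated, had ratios of 7.77, 8.36 and 9.03 in footprints and 1.06, 1.02 and 1.04 in RNA, a log2 difference of 3.01 ± 0.10. Its 5' UTR of 73 nt holds no AUG, and 55.7% to 61.0% of the footprints on it spanned the start codon. Hes1 had a log2 difference of 1.99 with a single upstream frame of 4 codons, the glycosyltransferase Mfng 2.67 and the receptor Notch1 1.68. In the FGF pathway 13 of 20 genes were higher and 1 lower, with a median of 0.87, and with footprints wholly inside 11 were higher and 2 lower, with a median of 0.83. The feedback inhibitor Spry2 had ratios of 4.88, 4.79 and 5.36 in footprints and 0.911, 0.772 and 1.00 in RNA. Dusp6, another feedback inhibitor, had a log2 difference of 1.46.

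In the canonical Wnt pathway 21 of 32 genes were higher and 2 lower, with a median of 0.82, and Dvl1 (1.87) and the receptor Fzd10 (1.82) were among the higher ones. When footprints wholly inside alone were counted, 17 of 31 were higher and 2 lower, with a median of 0.66. The BMP and TGF-beta pathway had 16 higher and 1 lower of 29, with a median of 0.56, and 12 higher and 3 lower of 25 with footprints wholly inside, with a median of 0.23. Its inhibitory Smad6 had ratios of 5.08, 8.21 and 4.59 in footprints and 0.673, 0.912 and 0.867 in RNA, with 10 upstream AUGs in 1035 nt, of which 270 nt are annotated as coding in another transcript. Id4, an inhibitor of bHLH factors, had 1.35.

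Genes of neural progenitor domains were higher in 31 of 35 and lower in 2, against 69.3% and 4.93% of all genes, with a median of 1.08. Restricted to footprints wholly inside, 23 of 32 were higher and 4 lower, with a median of 0.81. Sox9 had ratios of 1.75, 1.77 and 1.88 in footprints and 0.803, 0.877 and 0.757 in RNA, and Irx3 had a log2 difference of 1.31. Nkx6-1, a factor of ventral progenitors, went the other way, with 0.316, 0.278 and 0.257 in footprints and 0.921, 0.925 and 0.852 in RNA, a log2 difference of -1.66 ± 0.12 over a 5' UTR of 762 nt. Few of its footprints spanned the start (1.68% to 10.3%), and with footprints wholly inside the difference was -1.76. Factors of spinal neuron subtypes were higher in 22 of 40 genes and lower in 3, with a median of 0.62, and with footprints wholly inside 17 of 37 were higher and 5 lower, with a median of 0.43. Of these factors, Lhx2 (1.43), Foxp4 (1.29) and Pou4f1 (1.24) were among the higher ones.

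Genes of neurons in general had a median of 0.44, less than over all genes, with 25 of 37 higher and 2 lower, near the 69.3% and 4.93% of all genes. With only footprints wholly inside counted, 10 of 33 were higher and 11 lower, with a median of 0.02. Gng3, a G protein subunit, had a log2 difference of 1.15 and Tagln3 0.88. Tubb3, the neuronal tubulin, had ratios of 0.169, 0.195 and 0.146 in footprints and 0.309, 0.270 and 0.266 in RNA, a log2 difference of -0.73 ± 0.09. Hox genes, which set position along the axis, were higher in 21 of 30 and lower in 4, with a median of 0.73. Counting footprints wholly inside alone, 8 of 20 were higher and 9 lower, with a median of 0.03. Hoxb2 had 0.449, 0.695 and 0.484 in footprints and 0.0685, 0.0307 and 0.0561 in RNA, a log2 difference of 3.46 that rested on 44 RNA counts on the 5' UTR. Hoxc6 had 2.39 and Hoxb9 1.66, both with at least 59.0% of 5' UTR footprints on the start codon, and Hoxa3, with 3 overlapping frames, had 1.49.

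Cell cycle genes were higher in 43 of 50 and lower in none, against 69.3% and 4.93% of all genes, with a median of 0.89 equal to that of all genes. When footprints wholly inside alone were counted, 25 of 43 were higher and 8 lower, with a median of 0.49. E2f1, which drives entry into S phase, had ratios of 3.17, 3.97 and 4.47 in footprints and 0.547, 0.646 and 0.526 in RNA. The kinase Cdk4 had a log2 difference of 1.44 and the inhibitor Cdkn1c 1.40. Translation initiation factors were higher in 28 of 33 and lower in 2, with a median of 0.86. Restricted to footprints wholly inside, 11 of 23 were higher and 8 lower, with a median of 0.16. Eif4g1, the scaffold of the cap complex, had 1.36. Elongation and termination factors were higher in 8 of 9, against 69.3% of all genes, with a median of 1.12, and in 7 of 8 with footprints wholly inside, with a median of 0.87. In 8 of the 9, more than 5% of stretches are found in a gene elsewhere, so their counts are uncertain. Eef2, with 28.9% of its coding stretches found elsewhere, had ratios of 2.67, 2.72 and 2.56 in footprints and 1.15, 1.07 and 1.23 in RNA. Polyamine genes were higher in 8 of 9, with a median of 1.21, and in 6 of 7 with footprints wholly inside, where 1 was lower; 5 of the 9 share sequence. Smox, an oxidase of spermine, had 1.91.

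Cytosolic ribosomal protein genes had a median of -0.85, with 16 higher and 24 lower of 46 tested, and 5 higher and 15 lower of 21 with footprints wholly inside. In 42 of the 43 with a value, more than 5% of the 30-nt stretches are found in a gene elsewhere, so the split of their reads between copies is uncertain. Rps20 is an example, with ratios of 19.3, 16.4 and 19.2 in footprints, 3.23, 3.13 and 3.12 in RNA, and 94% of coding stretches found elsewhere. The same limit holds for 8 of 9 replication-dependent histones, of which 8 were higher and none lower, with a median of 0.75. With footprints wholly inside, 2 of 3 histones were lower and none higher. Globins had 2 higher and 2 lower of 7, with a median of -0.78, and none higher and 2 lower of 3 with footprints wholly inside, and 4 of the 7 share sequence.

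Nuclear genes of oxidative phosphorylation were higher in 29 of 45 and lower in 5, with a median of 0.48. For footprints wholly inside, at the lower bound of their number, the median of the 30 genes with at least 100 nt was -0.92, with 5 higher and 20 lower. The medians with all footprints and with those wholly inside cover different sets of genes, and the upper bound is not given for this list. Atp5g3, an ATP synthase subunit, had 1.00 and Ndufb8, of complex I, had -1.84. Heat shock and endoplasmic reticulum chaperones had a median of 0.26, with 11 of 25 higher and 5 lower, and 2 of 20 higher and 12 lower with footprints wholly inside, with a median of -0.50. Calr, a chaperone that binds calcium, had ratios of 0.385, 0.380 and 0.343 in footprints and 0.548, 0.549 and 0.620 in RNA, whereas Hspa5 had a log2 difference of 0.62. Collagens were higher in 8 of 14 and lower in 1, with a median of 0.43, and with footprints wholly inside 4 of 13 were higher and 1 lower, with a median of 0.29. Col3a1 (-0.82) was the lower one beside Col1a2 (1.01).

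Of the 553 genes with a lower ratio in footprints, 142 of 534 with a value (26.6%) shared sequence with another locus, against 1050 of 7445 (14.1%) of those with a higher ratio and 14.2% of all. The share was 41.7% among the 120 with a value that were lower by more than 4-fold. The 12 largest falls were mostly of this kind. Mif, a cytokine, had 0, 1 and 0 footprints on its 5' UTR against 2561, 777 and 1226 on its coding sequence, while RNA gave 58, 61 and 31 on the 5' UTR, and all of its 5' UTR and coding stretches are found in another gene. Eno1, a glycolytic enzyme, had 1 footprint on the 5' UTR in each pool and 39, 58 and 43 RNA counts, with 87% of its coding stretches found elsewhere. Rpl22, Hnrnpa1, Rps24, Stmn1, Rpl26, Pfdn5 and Capza1 likewise had 49% to 92% of coding stretches found elsewhere and 1 to 8 footprints on the 5' UTR over 3 libraries. Phf11c, with 26.5% of its coding stretches found elsewhere, had no footprint on its 5' UTR and 7, 5 and 5 on its coding sequence, and no shared sequence value was obtained for Sra1 and Rps18.

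With genes that share sequence set aside, the largest falls were those of Gp1bb, Mbd5, Igsf3, Fastkd1, Spef1, Homer1, Irf9, Tmem86b, Serhl, Gsk3b, Adal and Ndst2, with log2 differences of -4.36 to -2.64. Gp1bb, a platelet receptor subunit, had ratios of 0.201, 0.156 and 0.332 in footprints and 4.53, 5.33 and 4.74 in RNA. Its 5' UTR of 1037 nt overlaps 2 other genes, and its RNA ratio, not only its footprint ratio, stood apart from the median. Homer1, a scaffold of synapses, had 0.121, 0.164 and 0.175 in footprints and 1.01, 1.08 and 1.23 in RNA over 499 nt, and overlaps no other gene. The kinase Gsk3b, described with the Hedgehog pathway, had 59.0% to 96.0% of its 5' UTR footprints on the start codon, and with footprints wholly inside its log2 difference was -7.26 to -3.87. Spef1 and Tmem86b rested on 1 footprint each, and Mbd5 on 4. Without the footprint library of pool 1, Tmem86b no longer passed (log2 difference -1.99, edgeR adjusted p = 0.073). For Adal and Ndst2, several transcripts had the same coding count, and with another of them the log2 difference was 0.29 and 0.80.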

How the data were processed

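The deposited values were whole-number read counts that the authors made, by lane, for each transcript and for its parts. Per the submitters' processing notes, cutadapt, STAR, bedtools and mm10 were used; versions, strand and the treatment of reads that align to several places are not stated there or in the labels, so antisense or overlapping genes cannot be told apart. Per the labels, each library was run in 2 runs of 4 lanes. The 48 wild-type lane columns were summed to 6 libraries, and 48 other columns were not used. GENCODE vM21 gave a gene for 121271 of 122941 transcript IDs by exact match and for 1522 more once the version was dropped; 148 had none (0.323% of counts). For each gene, the transcript with the highest coding count over all 6 libraries was used, and ties, found in 1984 of the genes tested, were broken by the annotation (basic tag, APPRIS, support level, name).

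The coding count leaves out the first 15 and last 5 codons. A gene was tested where its 5' UTR had at least 30 nt and its coding density gave an expected 5' UTR count of at least 10 in each assay, a filter that does not use the 5' UTR count. edgeR 4.0.16 (R 4.3.3) fitted 12 columns, 2 parts of 6 libraries, with 1 term per library, and tested the interaction of part and assay by quasi-likelihood, with Benjamini-Hochberg adjustment over all genes tested. The biological coefficient of variation was 5.55%. SE is the absolute log2 difference over the square root of F. Ratios per library used a pseudocount of 0.5 in each part. DESeq2 1.42.0 and limma 3.58.1 were alternatives. Tables and figures used Python 3.11.15, pandas 2.3.3, NumPy 2.4.6, SciPy 1.17.1 and Matplotlib 3.10.9. The fit was also run on counts simulated from its own fitted means and dispersions, with few genes changed. That setting differs from the data, where most genes were called, so no support for the calls is drawn from it.

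Per the labels' protocols, the cells of 1 litter were divided between both assays, so that pool numbers pair the footprint and RNA libraries. Deviations of the log2 ratio from the assay mean correlated at -0.01, 0.02 and 0.04 within the 3 pools over 5492 genes with at least 20 counts on the 5' UTR in every library. Sequence found elsewhere is the percentage of 30-nt stretches of the 5' UTR or trimmed coding sequence that occur in a transcript of another locus; 9218 genes had at most 5% in both. Named genes were the 12 largest rises and 12 largest falls past the threshold with pools not overlapping and at least 30 RNA counts on the 5' UTR, predicted genes left out, up to 4 genes with the smallest p of each gene list, and a fixed set of genes; some genes so chosen are not reported here, and Mief1, Slc7a1, Cebpb and the genes of the lists without shared sequence were added after their values were seen. Members and gene lists were chosen with earlier results of these data known. Reads had no molecular identifiers, so duplicate reads could not be told from separate fragments by them. The SDs of the shares are between the 3 libraries of an assay.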

Additional observations from a re-analysis of the deposited data

How the results depend on the processing

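The number of genes with a higher 5' UTR to coding ratio in footprints was 6982 to 7730, and of those lower 451 to 612, when each library was left out in turn, and both stayed within 1.5 times of 7786 and 553 under DESeq2, limma, DESeq2 size factors, other filters, either run alone, the other transcript choices and without genes that overlap or share sequence. With the pool as a replicate block, 7857 were higher and 546 lower, and no call of the 101 named genes below changed. Against the median gene, 5279 genes were called, 2656 higher and 2623 lower. With footprints wholly inside the 5' UTR against unchanged RNA counts, in 8924 genes, 4193 were higher and 1803 lower at the lower bound. At the upper bound 5116 were higher and 1243 lower. This alternative and those on ties, overlapping genes and shared sequence were chosen after seeing the data. The median log2 ratio of footprints was 0.089 with an expected count of 50 and 0.11 with 5' UTRs of at least 100 nt, and 0.15 to 0.18 without each library. That of RNA was -0.69 with a pseudocount of 0.1, -0.56 with a pseudocount of 2, -0.69 with an expected count of 50, -0.68 with at least 100 nt, and -0.66 throughout without each library. Over all transcripts of the file, 5' UTRs held 12.8% of footprint counts and 5.47% of RNA counts, and without each library the shares were 13.8% to 13.9% and 5.16% to 5.20%.

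Of 2381 values of 101 named genes under these settings, 2358 kept direction and call, 8 lost the call and 15 changed sign. The sign changes include values that did not pass the threshold. In edgeR's test against the median gene, for example, Eif3c had an adjusted p of 0.94 and Ddx17 one of 2.8e-06. Against the median gene the log2 difference was -0.50 for Ddx17, -0.011 for Eif3c, -0.055 for Gli2, -0.27 for Hspa5, -0.21 for Odc1, -0.027 for Ptch1, -0.24 for Shh and -0.0071 for Tagln3. For footprints wholly inside, Eif3c had -0.74 to -0.31 and Gtf3a -0.11 to -0.054. Another of the tied transcripts gave 0.29 for Adal and 0.80 for Ndst2, and the whole coding sequence gave -0.29 for Rpl41. The cause of these changes was not tested. The SD of a gene's log2 ratio between libraries had a median of 0.16 in footprints and 0.25 in RNA, the shallower assay, and 95 genes tested had no footprint and 108 no RNA count on the 5' UTR.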

Other observations

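Endothelial markers, which belong to vessels that enter the neural tube, were higher in footprints in 6 of 6 genes tested, against 69.3% of all genes, with a median log2 difference of 0.66, below the 0.89 of all genes. With footprints wholly inside the 5' UTR, 5 of 6 were higher, and the receptor gene Tie1 had 1.18, against 2.16 with all footprints. Erythroid markers had 3 higher and 1 lower of 7, with a median of 0.10, and 1 higher and 3 lower of 5 with footprints wholly inside. Mesenchyme markers had 3 higher and none lower of 4, and 1 higher with footprints wholly inside. Neural tube markers had 8 higher and 2 lower of 10, and 5 higher and 2 lower of 9 with footprints wholly inside, and no muscle marker could be tested. Of the genes tested, 320 had a 5' UTR that overlaps an annotated coding sequence of another transcript, and their median log2 difference was 0.93, against 0.89 in the 10430 without such overlap. In Slc35a4, whose mRNA is known for a long upstream frame, the transcript with the most coding counts had no 5' UTR. Its trimmed coding sequence was 252 nt, with 308, 90 and 152 footprints and 52, 95 and 45 RNA counts. Whether that annotated coding sequence is the main one or the upstream frame was not tested.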
